A study of Mus musculus with 24 samples.

Results

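The Egr and Nr4a genes are 2 families of activity transcription factors, proteins whose messages accumulate soon after a cell is strongly stimulated. Their members here were Egr1, Egr2, Egr3, Egr4, Nr4a1, Nr4a2 and Nr4a3, taken by symbol as 7 of the 54235 features in the count matrices. Each matched 1 protein-coding gene of GENCODE M21 (GRCm38) by gene ID. Egr2 lies at chr10:67535475-67542188 on the plus strand, Egr3 at chr14:70077203-70082614 (plus) and Egr4 at chr6:85511121-85513589 (minus). Nr4a1 lies at chr15:101254269-101274795 (plus), Nr4a2 at chr2:57106830-57124003 (minus) and Nr4a3 at chr4:48045153-48086447 (plus). In all, the matrices held 329139 UMIs (molecules counted once each) of Egr1, 12977 of Egr2, 52253 of Egr3, 59737 of Egr4, 115981 of Nr4a1, 28442 of Nr4a2 and 20029 of Nr4a3.

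Single cells came from primary motor cortex of Fos-CreER::Ai9 mice and from dorsal striatum of Arc-CreER::Ai9 mice. In these lines the promoter of Fos or Arc drives a recombinase that needs 4-hydroxytamoxifen (4-OHT), so that cells active around the injection switch on the Ai9 reporter for good. Mice were trained to reach with a forelimb for 2 days (early) or 8 days (late), and controls received 4-OHT without training. Tissue was taken 3 days after labelling and digested with papain, and each library held 1 hemisphere of 2 mice. The 24 libraries formed 12 pools of mice, 2 for each region and stage, and the pool was the replicate. Of the first control pool of striatum only the left hemisphere was used, and the right one was not analysed here. All groups of a region carried the same alleles and the same 4-OHT, and the driver line differed between regions, so that region and line cannot be told apart.

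The Egr proteins bind GC-rich DNA through zinc fingers, and all but Egr4 can be held back by the corepressors Nab1 and Nab2. Egr1 is a widely used marker of recent activity in cortex and striatum, and Egr2 is also known for its part in myelination by Schwann cells and in macrophages. The Nr4a proteins (Nur77, Nurr1 and Nor-1) are orphan nuclear receptors that act without a known hormone, and Nr4a1 and Nr4a2 can pair with the retinoid X receptors. Nr4a2 is in addition a lasting identity factor, of midbrain dopamine neurons and of deep cortical neurons. Calcium and cAMP signals reach these genes mostly through CREB at cAMP response elements (CREs), and through SRF with its Elk partners at CArG boxes.

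Upstream windows of 250 bases from RefSeq (GRCm38.p6) were matched for 5 of the 7 genes, and show which of these elements lie next to the start. Capitals mark matches on either strand to the CRE core TGACG (also read as CGTCA), the CArG box and the EGR site GCGNGGGCG, none of which overlap each other.
Egr2, the third of 5 annotated starts: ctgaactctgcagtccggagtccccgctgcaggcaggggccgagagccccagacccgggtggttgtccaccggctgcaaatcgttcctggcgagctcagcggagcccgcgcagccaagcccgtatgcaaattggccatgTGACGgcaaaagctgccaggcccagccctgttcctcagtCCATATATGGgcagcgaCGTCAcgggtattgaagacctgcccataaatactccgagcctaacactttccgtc
Egr4: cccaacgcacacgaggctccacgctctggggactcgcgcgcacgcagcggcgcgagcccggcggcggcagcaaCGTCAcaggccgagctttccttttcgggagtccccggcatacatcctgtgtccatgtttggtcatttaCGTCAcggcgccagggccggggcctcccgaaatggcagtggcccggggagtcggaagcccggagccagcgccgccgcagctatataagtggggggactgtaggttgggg
Nr4a1: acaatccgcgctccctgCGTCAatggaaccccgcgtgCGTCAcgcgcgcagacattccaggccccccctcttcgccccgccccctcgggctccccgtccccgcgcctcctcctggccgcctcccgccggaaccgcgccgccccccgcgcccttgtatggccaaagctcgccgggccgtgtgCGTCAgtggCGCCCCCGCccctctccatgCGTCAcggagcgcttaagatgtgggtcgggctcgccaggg
Nr4a2: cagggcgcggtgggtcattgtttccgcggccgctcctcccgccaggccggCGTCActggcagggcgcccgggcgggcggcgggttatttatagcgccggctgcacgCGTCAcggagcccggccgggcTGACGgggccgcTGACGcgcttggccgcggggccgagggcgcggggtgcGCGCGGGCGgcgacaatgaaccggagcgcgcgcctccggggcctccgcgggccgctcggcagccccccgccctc
Nr4a3, the part before the annotated exons: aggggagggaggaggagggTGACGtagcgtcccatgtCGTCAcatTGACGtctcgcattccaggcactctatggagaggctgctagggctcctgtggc
The Egr2 window (chr10:67537619-67537868, plus strand) held the CArG box CCATATATGG beginning 72 bases upstream of the start, between CRE cores at 111 and 55 bases. The Egr4 window (chr6:85513590-85513839, minus) held CRE cores 177 and 109 bases upstream. Nr4a1 (chr15:101266596-101266845, plus) had 4 CRE cores at 233, 213, 69 and 40 bases and an EGR site at 60 bases. Nr4a2 (chr2:57124004-57124253, minus) also had 4, at 200, 144, 123 and 111 bases, with an EGR site at 74 bases. The Nr4a3 bases shown (chr4:48045055-48045152, plus) held 3 CRE cores at 231, 213 and 205 bases. Among 32851 windows of this length 17.8% held a CRE core, 1.47% a CArG box and 4.70% an EGR site. Full CREs (TGACGTCA, 1.55% of windows), the Nr4a monomer site AAAGGTCA (1.34%) and AP-1 sites TGANTCA (6.75%) were also searched and these letters were not in the windows shown. A match describes letters and not a bound site.

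The 23 matrices read held 127901 barcodes and from 5260446 to 30470621 UMIs per library. After filters and removal of 5103 presumed doublets 98612 cells remained, 47985 of motor cortex and 50627 of dorsal striatum, with library medians of 2048 to 5725 UMIs per cell. Cells were clustered without the members, other immediate early genes, and lists of feedback, heat shock and immune genes, and were named by markers. Every class name means cells that look like that type, for example D1-like cells with Drd1, Tac1 and Isl1, or D2-like cells with Drd2, Adora2a and Penk. Libraries shared barcodes in 2 patterns, taken as 2 versions of the library kit. Kit class A held replicate 1 of the control and late groups of both regions (4 pools), and class B the other 8. The Fezf2 Bcl11b layer 5 class had too few cells in any pool for a level.

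Levels are given as CPM, UMIs of a gene in counts per 1000000 UMIs of the class in a pool. They are compared between classes and pools and never between genes. By median, Egr1, Egr3 and the Nr4a genes were highest outside neurons, Egr2 in microglia, perivascular macrophages and D2 spiny neurons, and Egr4 in spiny and cortical projection neurons. Over 217 pairs of neighbours in the order of classes within a region, 0 differed at an adjusted p under 0.05 by exact sign-flip tests over 6 pools. Of these, 43 reached 0.03125, the smallest p that 6 pools allow, before adjustment, so that 0 does not show neighbours to be alike. D2 and D1 neurons, for example, were neighbours for Egr3, Egr4, Nr4a1 and Nr4a3.

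**Figure D1:**
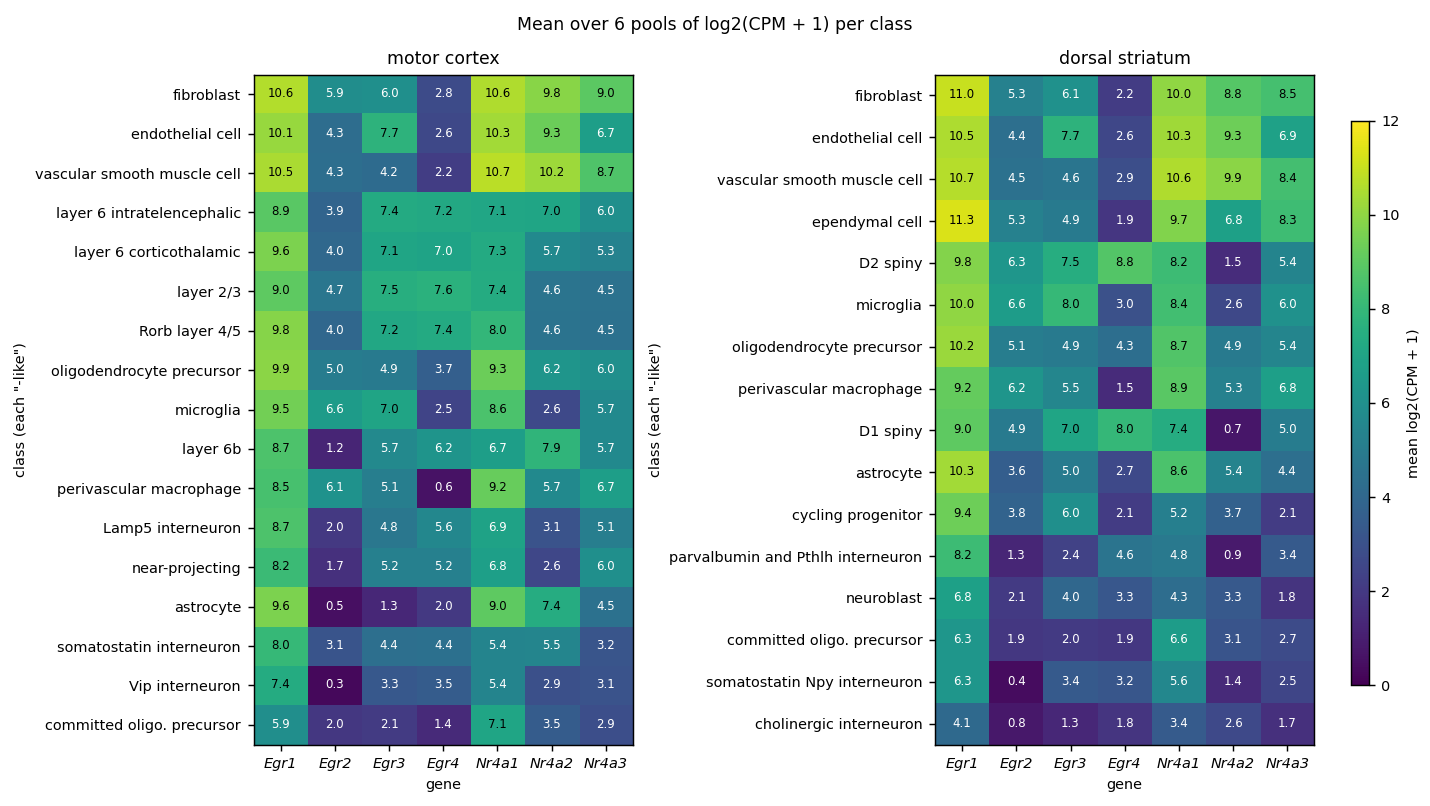
Mean log2(CPM + 1) over the 6 pools of a region for each member (columns) in each class with at least 20 cells in every pool (rows), in motor cortex and dorsal striatum. Egr4 is brightest in spiny and cortical projection neurons, and Nr4a1 and Nr4a2 in vascular cells and fibroblasts.

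Among classes with all 6 pools, Egr1 reached its highest striatal level in ependymal cells, with a median of 2791 CPM (lowest 1612, highest 3116). Fibroblasts followed at 2328 (1116 to 2796), then endothelial cells at 1727 (847 to 2173), and the same 2 types had 1762 and 1282 in motor cortex. Pericytes, which had 20 cells in only 4 and 5 pools, held medians of 4902 and 4896 CPM. Among neurons with all 6 pools, the highest medians were those of Rorb layer 4/5 neurons (951, 607 to 1113) and D2 spiny neurons (924, 519.8 to 1203). The lowest neuronal levels were in cholinergic interneurons (median 18.4 CPM, 5.33 to 28.1) and striatal somatostatin Npy interneurons (78.4, 48.6 to 114). Striatal parvalbumin and Pthlh interneurons stood higher, at 309 (198 to 483).

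Egr2 was highest by median in microglia, which had 93.6 CPM in cortex (71.9 to 149.9) and 96.0 in striatum (64.3 to 134). Perivascular macrophages had 65.2 and 78.0. D2 spiny neurons, at 81.9 (49.9 to 109.98), lay within that range, and the D1 neurons of the same pools at 29.7 (20.6 to 36.9). Layer 2/3 neurons led the cortical neurons with 24.97 (16.2 to 34.9). In cortical astrocytes 3 UMIs were counted in 2998 cells, and in Vip interneurons 3 in 1556.

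Egr3 had its highest medians in endothelial cells, at 244 CPM in cortex (94.5 to 405) and 301 in striatum (45.9 to 478). Microglia held 149 and 263, in striatum above endothelial cells in 5 of 6 pools, D2 spiny neurons 202 (104 to 227), and layer 2/3 and layer 6 intratelencephalic neurons 179 and 159.8. Egr4 followed another pattern. Its medians were 475 CPM in D2 neurons, 269.6 in D1 neurons, and 187, 151, 143 and 124 in layer 2/3, Rorb, layer 6 intratelencephalic and layer 6 corticothalamic neurons. Microglia had 4.66 in cortex and 5.37 in striatum, endothelial cells 5.12 and 2.75. Across classes, the genes most like Egr4 were Ddn (Pearson r = 0.95 of class means over 44 classes), Icam5 (0.95) and Camkv (0.93), all 3 known for expression in projection neurons.

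Nr4a1 and Nr4a2 were highest by median in cells of vessels and meninges, and Nr4a3 in these and in ependymal cells. Nr4a1 had medians of 1689.9 and 1609.8 CPM in smooth muscle cells of striatum and cortex, 1245 and 1348 in endothelial cells, and 1116 and 1630.2 in fibroblasts, against 193 to 326 in spiny neurons. Nr4a2 had 1222 CPM in cortical smooth muscle cells (1041 to 1349) and 918 in striatal ones (634 to 1639). Nr4a3 had its highest cortical median in fibroblasts (536 CPM), and in striatum ependymal cells (368, 171 to 466), smooth muscle cells (341) and fibroblasts (337) stood close together. Over the 44 classes the genes most like Nr4a1 were Junb (r = 0.90), Sertad1 (0.87) and Nr4a3 (0.87), and those most like Egr1 were Junb, Per1 and Nr4a1, each at 0.81. Egr4 stood furthest from the other members, with r from -0.16 (Nr4a2) to 0.52 (Egr3). These correlations share libraries and depth and describe the pattern only.

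The rest of the likeness ranking named Rnf19a (0.71), Diaph2 (0.70) and Btaf1 (0.70) for Egr2, and Baiap2 (0.76), Ier5 (0.73) and Gm14636 (0.72) for Egr3. For Nr4a2 it named Samd9l (0.73), Nr4a1 (0.72) and Adamts9 (0.71), and for Nr4a3 Nr4a1 (0.87), Junb (0.85) and Sertad1 (0.81). Summed levels of 13 heat shock and dissociation genes were also highest in endothelial cells, with medians of 16866 CPM in striatum and 16557 in cortex, and in striatal ependymal cells with 15779.7. They were lowest in astrocytes, at 2911 and 2229.6, where Egr1 stood at 1401 and 803. The part of tissue digestion in the non-neuronal levels was not tested.

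Within striatal spiny neurons, 6 of the 7 members were higher in D2 (indirect pathway) than in D1 (direct pathway) cells of the same pools. In the order control 1 and 2, early 1 and 2, late 1 and 2, Egr1 stood at 403, 681, 548, 664, 310.2 and 667 CPM in D1 neurons. In D2 neurons it stood at 707, 1147, 778, 1069.8, 519.8 and 1203, above the D1 value in each pool. Although the 2 ranges overlap, the D1 level was 0.589 of the D2 level (log2 difference -0.76, SE 0.026, edgeR adjusted p 4.2e-29).

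Egr2 had the largest gap of the 6. Its D1 levels were 28.2, 31.2, 24.3, 36.9, 20.6 and 35.9 CPM, all below the D2 levels of 90.2, 100.05, 49.9, 73.6, 60.8 and 109.98. The D1 level was 0.369 of the D2 level (-1.44, SE 0.061). For Egr4, D1 neurons had 267, 271, 168, 269, 296 and 303 CPM, and D2 neurons 530.3, 462, 260.2, 427, 487 and 531. Only the early 1 pool of D2 fell among the D1 values, and its own D1 value was the lowest of all, so that D1 lay below D2 in each pool. The fitted ratio was 0.575 (-0.80, SE 0.027). The SEs and p-values of edgeR draw in part on spread shared across genes. Over the 6 pools the paired D2 minus D1 difference in log2(CPM + 1) of Egr4 averaged 0.76 with an SD of 0.13. That SD was 0.15 for Egr3, 0.053 for Nr4a1 and 0.086 for Nr4a3.

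Egr3 differed less, with 113, 161, 162, 138, 91.7 and 133 CPM in D1 and 149, 227, 213, 201, 104 and 204 in D2 (-0.50, SE 0.033). Among the Nr4a genes, Nr4a1 stood at 264, 202, 86.2, 183, 218 and 134 CPM in D1 and at 462, 354, 148, 299, 379 and 245 in D2. Its D1 level was 0.559 of the D2 level (-0.84, SE 0.026, edgeR adjusted p 2.3e-31). Nr4a3, with 26.9, 46.3, 25.2, 47.2, 19.5 and 37.2 against 35.5, 58.7, 30.7, 58.4, 24.6 and 53.5, had the smallest difference (-0.40, SE 0.051, edgeR adjusted p 5.6e-09). Nr4a2 was near 0 in both, with 28 UMIs in 8646 D1 cells and 91 in 10091 D2 cells, and did not pass the filter on low counts.

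**Figure D2:**
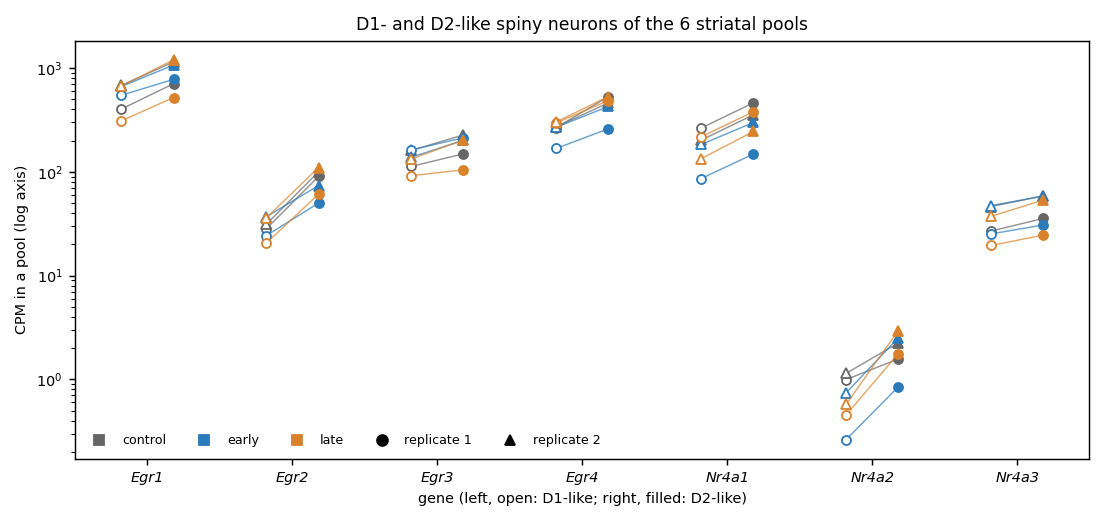
CPM of each member (log axis) in D1 and D2 spiny neurons, with a line joining the 2 classes of each of the 6 striatal pools. In every pool the line rises from D1 to D2 for Egr1, Egr2, Egr3, Egr4, Nr4a1 and Nr4a3, and Nr4a2 lies near 1 CPM.

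Of all 13959 genes tested between D1 and D2 neurons 15.9% were lower and 12.7% higher in D1. Of the 6 members that passed the filter, 6 were lower. Among the other immediate early genes 17 of 24 were lower in D1 and 2 higher (median log2 difference -0.61, all genes -0.01), among them Fos (-1.65), Arc (-1.31), Junb (-1.02) and Jun (-0.87). Feedback and late response genes were lower in D1 in 14 of 24 cases and higher in 4 (median -0.25), with Dusp1 at -0.67 and Rgs2 at -0.45 but Scg2, a secretory granule protein, at 0.48. The partners and upstream regulators moved less, 9 of 28 higher and 5 lower in D1 (median 0.02), led by the kinase genes Rps6ka5 (0.68), Mapk3 (0.34) and Map2k1 (0.20). In the heat shock list 8 of 12 were lower in D1 and 0 higher (median -0.10, Hspa1a -0.51), and the part of stress in the members' difference was not tested. The summed level of that list was 5291 to 7494 CPM in D1 and 5241 to 7900.04 in D2.

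Members were also detected together in the same spiny neurons. With each cell thinned to 1000 UMIs, a median of 67.9% of D2 neurons with Nr4a1 also had Egr1, against 49.4% of those without, higher in 6 of 6 pools. In D1 neurons the shares were 53.8% and 38.4%, also in 6 of 6. Egr4 was seen in 41.4% of D2 neurons with Nr4a1 and 25.4% of those without, and in 34.2% and 18.5% in D1. In cortical projection classes the gap for Egr1 was smaller in percentage points. Egr1 was seen in 64.7% of Rorb neurons with Nr4a1 and 57.5% without, and in 42.0% and 38.0% of layer 6 intratelencephalic neurons. The shares were 50.1% and 40.1% in layer 2/3 neurons and 33.8% and 22.7% in near-projecting neurons, higher in 6 of 6 pools in both. As a ratio, the gap of near-projecting neurons was not smaller than that of spiny neurons. Other pairs of members did not all go this way in cortex. By median, 7.79% of layer 6 intratelencephalic neurons with Nr4a3 had Nr4a1, against 14.2% without (higher in 2 of 6 pools). In layer 2/3 neurons the shares were 12.9% and 14.9% (3 of 6 pools). The other projection classes had more with Nr4a3, such as corticothalamic neurons (23.8% and 15.6%, 6 of 6). No pairs of other genes are given as a baseline. Cholinergic interneurons had the lowest striatal medians of Egr1 and Nr4a1 among classes with all 6 pools, and were deeper (16623 UMIs against 5169 in D2). At the same thinning a median of 0.704% of them had Egr1, 1.32% Nr4a1 and 0% Egr4. Other striatal classes low in Egr1 stood higher, with Egr1 in 6.18% of somatostatin Npy interneurons and 8.34% of neuroblasts. These single-gene shares are no floor for the shares of cells with 2 members. Without thinning the cholinergic medians of Egr1, Nr4a1 and Egr4 were 20.4%, 14.3% and 3.71%, against 86.9%, 54.8% and 60.2% in D2 neurons. Cells of a pool share their library, so these shares carry no test.

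Cortical projection neurons differed by layer in a gene-specific way. Each of 6 classes was set against the mean of the other 5 over 6 pools, and 38 of the 42 member and class pairs passed, against 56.0% of all 81702 gene and class pairs. Rorb layer 4/5 neurons carried the most Egr1 and Nr4a1. There Egr1 stood at 607, 1113, 1053, 1011, 891 and 853 CPM in the same pool order (log2 difference 0.90, SE 0.043) and Nr4a1 at 249, 264, 269.9, 223, 417 and 142 (0.91, SE 0.047). Nr4a1 spread widely there, with late 1 highest and late 2 lowest of the 6 pools. Nr4a2 and Nr4a3 were below the mean of the other classes in the same cells (-1.07 and -1.10), with Nr4a2 at a median of 22.8 CPM, above near-projecting neurons at 5.44.

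Layer 2/3 neurons led in the other Egr genes. Egr2 stood at 16.2, 34.9, 18.9, 24.1, 34.8 and 25.8 CPM (1.93, SE 0.13), Egr3 at 149.8, 193, 164, 198, 165 and 251 (1.02, SE 0.045) and Egr4 at 187, 213, 184, 182, 250.2 and 187 (0.99, SE 0.060). Their Egr1 did not pass (-0.03, interval -0.12 to 0.06), and Nr4a2 (-0.93) and Nr4a3 (-0.98) were low as in Rorb neurons. Layer 6 corticothalamic neurons had Egr1 at 506 to 1037 CPM (0.76) and all 4 Egr genes above the mean of the other classes, with Nr4a3 not past the threshold (0.06, interval -0.06 to 0.18).

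Nr4a2 was highest, among projection neurons, in layer 6b neurons, which had 214, 284, 199.9, 243, 187 and 291 CPM (3.1, SE 0.077). Layer 6 intratelencephalic neurons had 116, 134, 95.2, 191, 134 and 134 (2.05, SE 0.077), so that only their early 2 pool reached the lowest layer 6b pool. Corticothalamic neurons held 34.6 to 75.3 (0.48, SE 0.088). Within the layer 6 intratelencephalic class the cluster with the highest Nr4a2 level was picked by that level, so that its gap to the rest follows in part from the choice. This cluster of 88 cells, led by Synpr, Rgs12, Tmem163 and Oprk1, held 1704 of the 3017 Nr4a2 UMIs. Its level was 1735 CPM (pools 1330 to 2045), against 59.8 in the other 2115 cells (pools 49.8 to 71.6), a level within the corticothalamic range. Its Egr1 (445 against 531) and Nr4a1 (117 against 139) were close to those of the other cells.

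Among the 6 projection classes, near-projecting neurons had the lowest medians of Egr1, Egr3, Egr4 and Nr4a2 and little Egr2. Their Egr1 stood at 232 to 389 CPM (-1.14), Egr3 at 21.1 to 50.6 (-1.89), Egr4 at 20.4 to 52.3 (-1.93), Egr2 at 0.479 to 4.75 (-2.34) and Nr4a2 at 2.40 to 7.81 (-3.63). Their Nr4a1 was also below the mean of the other classes (-0.63, SE 0.081). Nr4a3 was above it, at 37.5, 65.8, 54.6, 79.0, 53.9 and 91.2 CPM (0.76, SE 0.088). Layer 6b neurons were likewise low in Egr1 (-0.41), Egr2 (-2.77), Egr3 (-1.16), Egr4 (-0.57) and Nr4a1 (-0.55) and high in Nr4a3 (0.46).

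**Figure D3:**
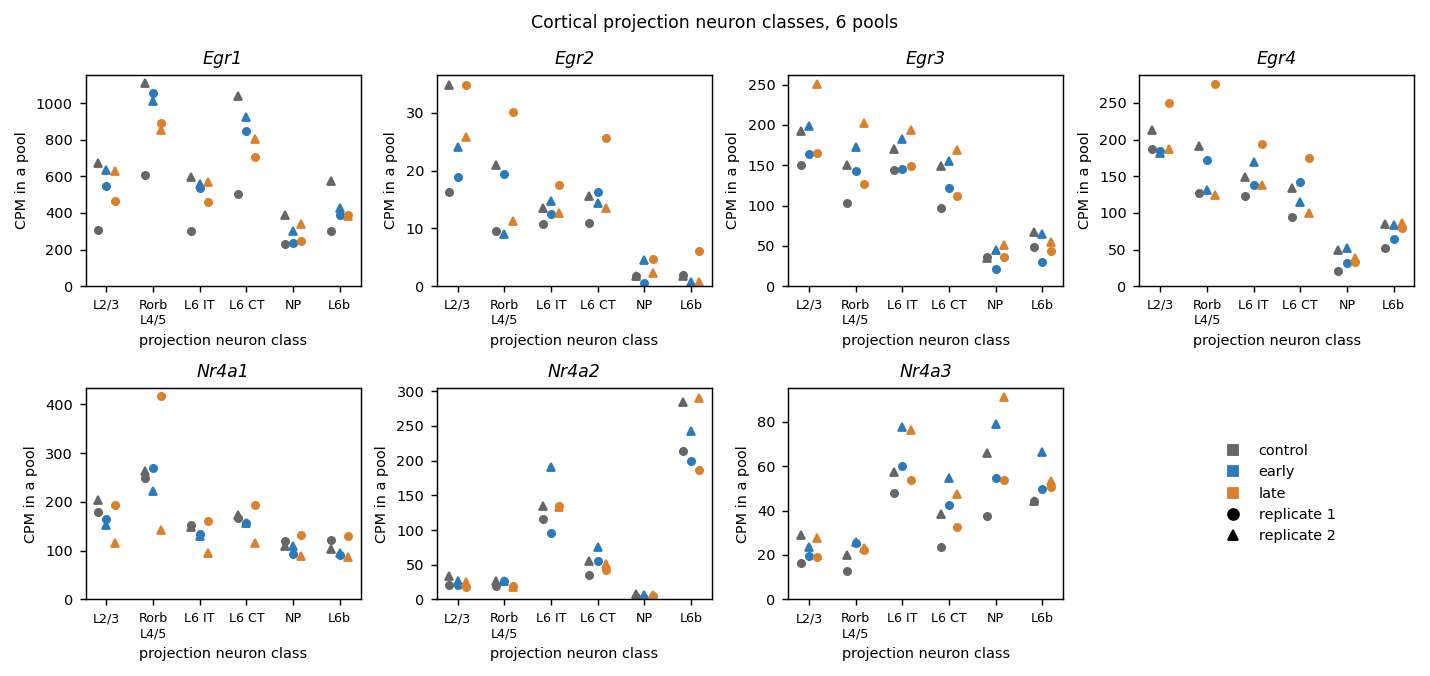
CPM of each member (linear axis) in the 6 classes of cortical projection neurons, 1 point for each pool, with colour for stage and shape for replicate. For Nr4a2, layer 6b neurons lie highest (187 to 291 CPM) and near-projecting neurons lowest (2.40 to 7.81 CPM).

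The other immediate early genes divided in part along the same lines: 19 of 25 were higher in corticothalamic neurons and 3 lower (median 0.54), while 2 were higher and 16 lower in near-projecting neurons (median -0.62). In layer 2/3 neurons 7 were higher and 12 lower (median -0.14), the opposite balance to their Egr2, Egr3 and Egr4. In Rorb neurons 11 were higher and 10 lower, with 10 of 12 heat shock genes lower (median -0.32). Partners and upstream regulators were higher in 14 of 30 cases and lower in 3 in layer 2/3 neurons, and 2 higher and 17 lower in near-projecting neurons (median -0.39). Of all genes, 29.3% were higher and 21.3% lower in corticothalamic neurons, 28.6% and 29.3% in near-projecting, 32.7% and 30.6% in layer 2/3, and 32.9% and 29.9% in Rorb neurons. Vip interneurons had a median Egr1 of 172 CPM, Egr4 of 8.46 and Nr4a1 of 44.3. By median, Lamp5 interneurons, at 376, 48.6 and 118, lay above near-projecting neurons, at 276, 35.8 and 110.3. For Nr4a1 the pools overlapped (83.3 to 166 against 88.9 to 133), and Lamp5 cells were higher in 4 of 6. For Egr4 they were higher in 5 of 6.

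Microglia varied among their own clusters and pools. In striatum the cluster led by Cx3cr1, C1qa and Gpr34 had 2717 CPM of Egr1 and 688 of Egr3, and the cluster led by Gdf15, Ccl3 and Tnf had 171 and 85.4. Nr4a3 ran the other way, at 32.2 and 156. In cortex the cluster led by Selplg, Fcrls and Gpr34 had 1714 CPM of Egr1 and 23.0 of Nr4a3, against 135 and 123 in the one led by Ccl4, Bcl2a1b and Ccl3. The clusters were filled unevenly by kit class: another striatal cluster held 97.1% and 97.9% of the microglia of the class A pools, which gave 12 and 14 cells to the cytokine-led cluster. Within each of the 4 class B pools the contrast was present, with Egr1 at 2104 to 3236 against 142 to 205 CPM in striatum and 1293 to 2359 against 117 to 151 in cortex. Nr4a3 stood there at 24.6 to 44.1 against 114 to 214 in striatum and 14.2 to 30.9 against 85.0 to 171 in cortex. The clusters differ in the cytokine genes that lead them, and the part of activation during digestion was not tested. By pool, over all clusters, cortical microglia ranged from 200.1 (late 1) to 1367 CPM (control 2) of Egr1 and striatal ones from 425 (late 1) to 2138 (early 1).

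Of the classes, 8 could be set against each other between regions, and 4 of 37 member and class pairs passed, against 5.08% of all gene and class pairs. Of these, 3 were Nr4a2. In cortical astrocytes it stood at 127, 147, 183, 215, 209 and 170.03 CPM and in striatal astrocytes at 43.8, 42.3, 10.4, 61.4, 43.4 and 82.7, with no overlap (striatum minus cortex -1.88, SE 0.24). In oligodendrocyte precursors it stood at 64.6 to 91.1 CPM in cortex and 15.5 to 46.4 in striatum (-1.16, SE 0.17). In fibroblasts, where 24 to 102 cells a pool were counted, the difference of -0.90 (SE 0.24, edgeR adjusted p 0.038) was kept in 7 of 19 alternatives. Egr1 was higher in striatal astrocytes, at 1086, 1572, 809, 1752, 1317 and 1485 CPM against 647, 889, 814, 792, 742 and 934 (0.76, SE 0.165, edgeR adjusted p 0.00085). A striatal astrocyte cluster of 845 cells, led by Plpp3 and Slc1a3 with Gfap among its leading genes, had 2117 CPM of Egr1 and 123 of Egr3, and the other had 1017 and 4.8.

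The reporter asked whether cells labelled around the 4-OHT injection carried other levels of the members 3 days later. Reporter-positive cells here are those with at least 1 UMI of wpre, an element in the reporter's message, and are not shown to be the labelled cells. By median over pools 18.8% of D2 and 19.6% of D1 neurons had one, against 4.81% of striatal microglia at a shallower depth (1948 UMIs), but also 42.0% of striatal fibroblasts and 23.1% of endothelial cells. Thinned to 1000 UMIs, the shares were 10.4% in D2 and 10.7% in D1 neurons, 1.93% to 4.13% over the pools in striatal microglia, and 23.6% in fibroblasts. In cortex they were 7.08% in Rorb neurons, 2.76% in corticothalamic neurons (1.97% to 3.81%) and 2.62% in microglia (1.62% to 3.48%), so that the corticothalamic share did not stand above that of microglia. UMIs of tdtomato, the reporter's protein sequence, were seen in a median of 10.1% of positive and 0.139% of negative D2 neurons, and in 0.916% and 0% of corticothalamic neurons. The part of free RNA in the positive cells was not tested. In striatum 7 of 12 member and class pairs were higher in positive cells, against 0.2% of all genes, and 0 were lower. Egr4 in D2 neurons stood at 604, 501, 290.3, 502, 537 and 560.3 CPM in positive cells and at 508, 451, 254, 412, 475 and 523 in negative cells, higher in 6 of 6 pools (0.19, SE 0.030). In D1 neurons the difference of Egr4 was 0.22 (SE 0.039, 5 of 6 pools) and that of Nr4a1 0.27 (SE 0.047, 5 of 6 pools).

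Nr4a3 in D1 neurons had 38.6, 51.8, 35.1, 62.3, 28.8 and 40.2 CPM in positive and 23.3, 44.9, 22.5, 43.9, 17.5 and 36.4 in negative cells (0.44, SE 0.092, edgeR adjusted p 0.003). In D2 neurons Nr4a3 did not pass (0.11, interval -0.04 to 0.27), while Nr4a1 (0.17), Egr3 (0.18) and Egr1 (0.12) did. In motor cortex 3 of 34 pairs were higher, against 0.631% of all genes: Egr4 in Rorb (0.25, SE 0.054) and corticothalamic neurons (0.20, SE 0.053), and Egr3 in corticothalamic neurons (0.21, SE 0.052). For Egr1 in cortical neurons the intervals of all 5 classes tested lay between -0.13 and 0.24 (log2). Among other immediate early genes 7 of 22 were higher in positive D2 cells and 4 of 20 in positive D1 cells, with Fos, Junb and Gadd45g in both.

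Positive cells were also deeper, at 2887 to 6100.4 UMIs per cell against 2648 to 5417 in D2 neurons (6 of 6 pools) and 3043 to 7016 against 2835 to 6556 in D1 neurons (5 of 6). With neurons thinned to 1000 UMIs, 0 pairs passed in either region, although the difference kept its sign in all 10 pairs (edgeR adjusted p 0.161 to 0.997). It became smaller for Egr4 (0.15) and Nr4a1 (0.24) in D1 neurons, for Egr1 (0.049) and Nr4a1 (0.12) in D2 neurons and for Egr3 in corticothalamic neurons (0.18). It became larger for Nr4a3 in D1 neurons (0.76), Egr3 (0.23) and Egr4 (0.22) in D2 neurons, and Egr4 in Rorb (0.40) and corticothalamic neurons (0.41). Thinning removes most UMIs of these genes, so that it lowers both depth and precision. The share of all genes that passed after thinning is not given here. Without kit class A, the D1 differences of Egr4 (0.16), Nr4a1 (0.17) and Nr4a3 (0.39) no longer passed. Leaving out control 1 alone had the same effect on Nr4a1 in D1 neurons (0.18, adjusted p 0.088), and leaving out early 1 or early 2 on Nr4a3 (0.39 and 0.41). DESeq2 also lost Nr4a1 (0.27, adjusted p 0.99997) and Nr4a3 (0.46) in D1 neurons, and a minimum of 2 wpre UMIs lost Nr4a3 (0.39). In D2 neurons Egr3 no longer passed without control 2, early 1 or early 2 (0.15, 0.20 and 0.15), with DESeq2 (0.18) or with at least 2 wpre UMIs (0.20). Egr1 there was lost without early 1 or early 2 (0.096 and 0.091), and Nr4a1 without early 2 or late 2 (0.15 each). In cortex, Egr4 of Rorb neurons was lost without control 2 (0.21) and with at least 2 wpre UMIs (0.33), and Egr3 of corticothalamic neurons without early 1 or control 2 (0.16 and 0.18). Egr4 of corticothalamic neurons was lost without late 1, early 1 or late 2 (0.19, 0.13 and 0.20), with class B alone (0.19) and with at least 2 wpre UMIs (0.15). Without the filter on low counts, all 4 D2 pairs and all 3 cortical pairs were lost as well.

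**Figure D4:**
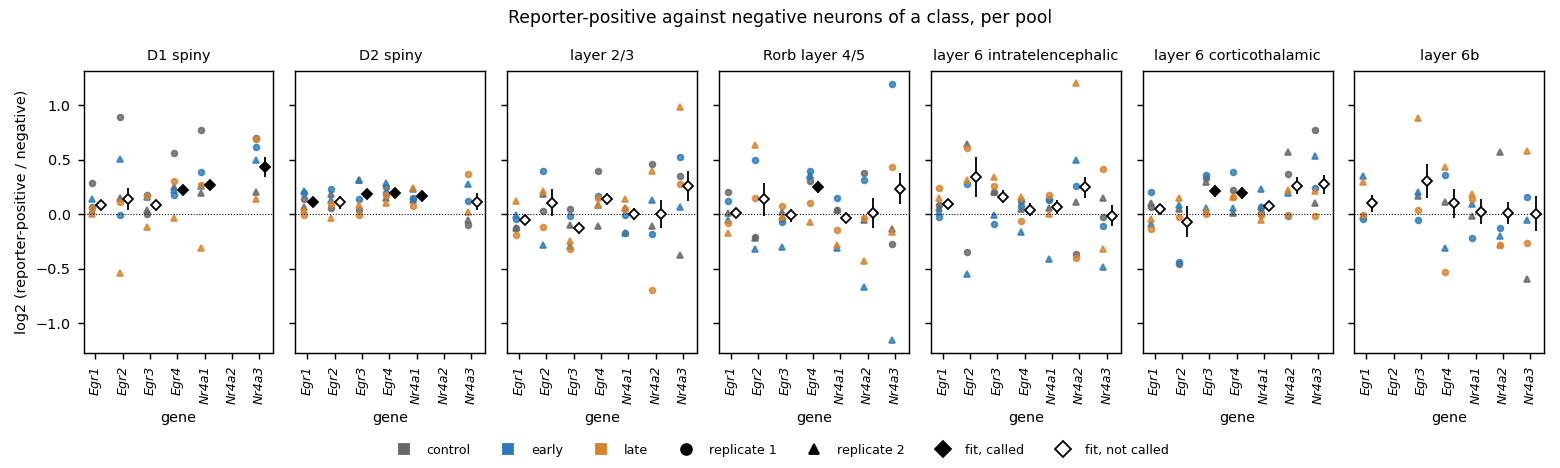
Log2 ratio of CPM in reporter-positive over reporter-negative cells, 1 point for each pool, with the edgeR difference and its SE (diamonds, filled where called), for the members in spiny neurons and cortical projection neurons. The points of Egr4, Nr4a1 and Nr4a3 in D1 neurons and of Egr4 and Nr4a1 in D2 neurons lie mostly above 0.

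Before the stages, the kit classes have to be set out, since each held different pools of the control and late groups. The 2 pools of class A lay below all 4 pools of class B for Egr1 in 11 of 16 striatal and 11 of 17 cortical classes, with a median log2 difference of -0.74 and -0.62. For Nr4a1 they lay above all class B pools in 13 of 16 and 6 of 17 classes (medians 0.74 and 0.35). Egr3 lay below in 7 of 13 striatal and 5 of 16 cortical classes and Nr4a3 in 5 of 13 and 7 of 17. Few classes were apart for Egr2 (below in 2 of 11 and 1 of 11), Nr4a2 (below in 2 of 12 and 2 of 17) and Egr4 (above in 3 of 13 and 1 of 13). Among all gene and class pairs at a mean of 5 CPM or more, 28.1% lay below and 19.2% above in striatum, and 25.6% and 13.9% in cortex. Nr4a1 in striatal astrocytes is an example, at 592 and 969 CPM in class A and 128 to 388 in class B. Kit class therefore entered each comparison of stages as a term, and the early groups lay wholly in class B. The libraries also carried a batch label, which was not a term. In each region class A was the batch of control 1 and late 1, so that kit class and this batch cannot be told apart. Early 2 and late 2 lay in batches without a control pool.

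Training stage gave no call. In motor cortex 0 of 99 member and class pairs passed in any of the 3 contrasts, with 8, 14 and 9 at an unadjusted p under 0.05 in the contrasts of early with control, of late with control and of late with early. In striatum 0 of 84 passed, with 17, 13 and 11. Of all genes 0.0185% of pairs in cortex and 0.0279% in striatum were called, so that the design called few genes of any kind. With 2 pools a group the fits had 2 residual degrees of freedom, and the median SE of a member was 0.28 to 0.35 on the log2 scale. The p-values measure the spread between pools of 2 mice. At the unadjusted threshold the members' shares were 8.08%, 14.1% and 9.09% in cortex, against 3.58%, 4.40% and 2.50% of all genes, and 20.2%, 15.5% and 13.1% in striatum, against 5.32%, 5.60% and 6.92%. With 1 pool left out, 1 residual degree of freedom remains. In striatum 13, 6, 2, 22, 10 and 8 pairs over the 3 contrasts then passed without control 1, control 2, early 1, early 2, late 1 and late 2, and in cortex 2, 10, 1, 0, 2 and 9. Those fits also called more of all genes, 0.179% to 0.902% in striatum and 0.122% to 0.374% in cortex, and their counts are not read as calls.

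Among spiny neurons, Egr2 of D2 cells had the lowest unadjusted p. It stood at 90.2 and 100.05 CPM in controls, 49.9 and 73.6 in early and 60.8 and 109.98 in late pools, so that both early pools lay below both controls. The early against control difference was -0.85 (interval -1.27 to -0.42, edgeR adjusted p 0.952), with late 2 above both controls. Egr4 in D2 neurons stood at 530.3 and 462, 260.2 and 427, and 487 and 531 CPM, with late against early at 0.56 (interval 0.15 to 0.98). This did not pass, and the lowest edgeR adjusted p of Egr4 over striatal classes in that contrast was 0.454. The early 1 pool was low in Nr4a1 as well, at 148 CPM in D2 and 86.2 in D1 neurons. In the batch that this pool shared with control 2, the log2 difference from control 2 was -1.25 to -1.22 for Nr4a1 and -0.83 to -0.68 for Egr4 over both classes. In the batch of late 1 and control 1, late 1 differed by -0.29 to -0.28 in Nr4a1. There late 1 was also lower in both classes for Egr1 (-0.44 to -0.38), Egr2 (-0.56 to -0.44), Egr3 (-0.51 to -0.30) and Nr4a3 (-0.52 to -0.44). Early 1 was also lower in both for Egr1 (-0.56 to -0.31), Egr2 (-0.99 to -0.35), Nr4a2 (-0.81 to -0.76, near 0 CPM) and Nr4a3 (-0.91 to -0.85), but not for Egr3 (-0.09 to 0.02). Each batch gives a single pair of pools with no test, and the share of all genes that moved alike in both classes is not given.

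In Rorb neurons Nr4a1 went from 249 and 264 CPM in controls to 269.9 and 223 in early and 417 and 142 in late pools. The late pools thus lay on both sides of the controls, and the late against control difference was -0.04 (interval -0.63 to 0.56). With late 2 or control 2 left out it stood at 0.78, and with late 1 or control 1 left out at -0.87, values that each rest on a single pair of pools of 1 kit class. Within the batch of late 1 and control 1, the late pool was higher in all 6 projection classes for Egr1 (0.11 to 0.61), Egr2 (0.66 to 1.56), Egr4 (0.42 to 1.12), Nr4a1 (0.08 to 0.74) and Nr4a3 (0.17 to 0.76). Egr3 was higher in 5 (-0.16 to 0.29) and Nr4a2 in 4 (-0.21 to 0.38). Within the batch of early 1 and control 2, Egr1 (-0.72 to -0.08) and Egr3 (-1.11 to -0.07) were lower in the early pool in all 6, and the other members were higher in 1 to 4 classes. These are single pairs of pools with no test, and the 2 remaining batches held 1 pool of each region. The share of all genes that moved alike in all 6 classes is not given. Libraries of late 1 had medians of 2092 and 2169 UMIs per cell, and those of control 1 had 3514 and 5184. The left library of control 1 kept only 467 cells. The part of depth in these differences was not tested.

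**Figure D5:**
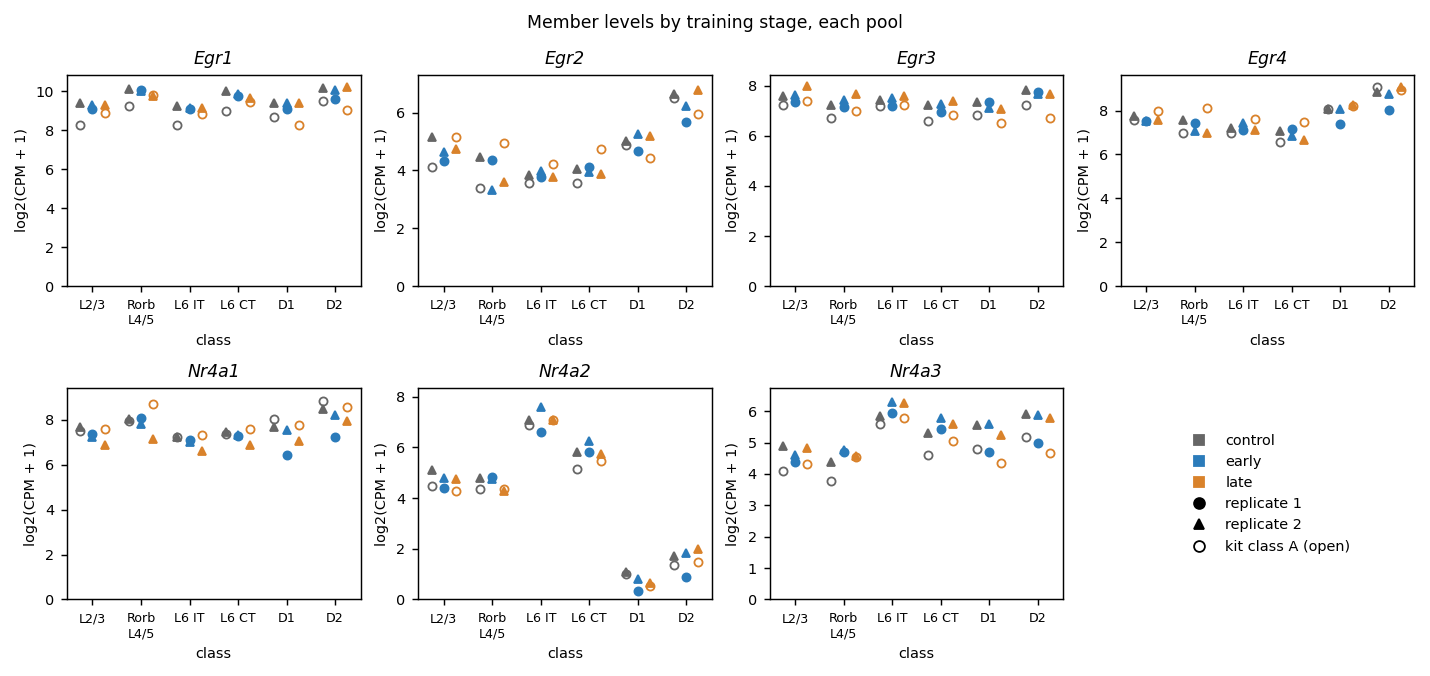
Log2(CPM + 1) of each member by stage (control, early, late) for layer 2/3, Rorb, layer 6 intratelencephalic, layer 6 corticothalamic, D1 and D2 neurons, 1 point for each pool, open for kit class A. The 2 pools of a stage often lie as far apart as the stages, for example Nr4a1 in Rorb neurons at 417 and 142 CPM in the late group.

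Counting classes by sign gives a similar picture of small shifts that did not pass. Striatal Nr4a2 was lower in early than in control pools in 10 of 10 classes (median -0.42, lowest adjusted p 0.588), and cortical Egr3 was higher in late than in early pools in 12 of 13 (median 0.35, lowest adjusted p 0.957). These were the most one-sided counts of each region over 7 members and 3 contrasts. Others were near even in early against control, such as striatal Egr1, higher in 9 of 16 classes, and cortical Nr4a2, higher in 7 of 15. The share of all genes with such one-sided counts was not computed. Classes of a pool share their library, so these counts carry no test. The largest value among the fitted pairs, which passed the filter on low counts, was Nr4a3 in striatal perivascular macrophages, early against control, at 2.82 (SE 0.58, edgeR adjusted p 0.101). Of the other immediate early genes 1 of 1137 pairs passed in cortex and 0 of 1014 in striatum, and of the feedback and late response genes 0 of 912 and 0 of 759. Of the partners 2 of 1251 pairs were lower in cortex. Of 6 general neuron genes, followed as a sign of neuron RNA in other cells, 9 of 282 pairs were lower and 1 higher in cortex, 7 of them lower in late than in control pools, and 1 of 249 was higher in striatum. These cortical pairs were of Nrgn, Meg3 and Snap25 in fibroblasts, endothelial cells, astrocytes and perivascular macrophages. The part of neuron RNA in the members' stage values of such classes was not tested.

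Trained pools were also split by hemisphere, contralateral or ipsilateral to the reaching limb. In motor cortex 0 of 78 pairs passed (0.0311% of all genes), with 6 at an unadjusted p under 0.05, and in striatum 1 of 56 (0.0236% of all genes). That pair was Egr1 in neuroblasts, at 85.5, 149.7, 35.5 and 78.1 CPM contralaterally and 73.4, 196, 157 and 141 ipsilaterally in early 1, early 2, late 1 and late 2. It was lower on the contralateral side in 3 of 4 pools (-0.60, SE 0.13, edgeR adjusted p 0.038), and it did not pass with DESeq2 or without early 2, late 1 or late 2. The Nr4a2 of cortical layer 6 intratelencephalic neurons stood at 77.4, 144, 136 and 125 CPM contralaterally and 113, 249, 132 and 143 ipsilaterally (-0.39, edgeR adjusted p 0.184). It passed without late 1 (-0.52, adjusted p 0.002). The cluster of 88 cells described above was picked by its Nr4a2 level. It gave 1.30%, 5.85%, 5.63% and 2.59% of the class contralaterally and 5.19%, 7.46%, 3.45% and 2.28% ipsilaterally. Without it the levels were 64.9, 66.6, 39.9 and 51.9 CPM contralaterally and 45.5, 78.03, 66.4 and 73.6 ipsilaterally.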

How the data were processed

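Single-cell libraries were counted as UMI counts per gene and cell. Per the submitters' processing notes, the authors used Cell Ranger 3.1.0 with GRCm38 (mm10), and the deposited counts are not normalized. The matrix headers carry software version 3.0.2. Kit versions (v2 or v3) are named in the labels without saying which library had which, so kit class was read from shared barcodes.

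Cells with at least 500 genes and 1000 UMIs and at most 20% mitochondrial UMIs were kept, presumed doublets were removed, and cells were clustered in scanpy 1.11.5 (2000 variable genes, 40 components, 20 neighbours, Leiden resolution 1.5, then 1.0 within neuron types). A name needed 3 detected markers. Naming rules were adjusted after the clusters, but not the members, had been seen. Counts were summed per pool and class with at least 20 cells, and tested with edgeR 4.0.16 (TMM, quasi-likelihood, Benjamini-Hochberg within class and contrast over all genes, adjusted p under 0.05), with kit class as a term between stages and the pool as a block within pools. DESeq2 1.42.0 was an alternative. The members are named whatever their values, and at most 4 genes of each fixed list by smallest p. Likeness took the 3 genes of highest correlation among those at 20 CPM in at least 1 class. The fits were tested on simulated counts. Members and lists were chosen with earlier results of these data known. Replicate numbers came in accession order and pair no samples. Alternatives covered filters, doublets, clustering, thinning, left-out pools and kit class. Intervals are 95% by a normal approximation around the estimate, which is narrower than the test of the fit at few degrees of freedom.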

Additional observations from a re-analysis of the deposited data

Results flagged for a closer look

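Some members moved one way in both trained pools of motor cortex and the other way in both of striatum, relative to the regional controls. The share of all genes with such opposite signs was not counted, so these cases are listed and not read as a result about the members. Values are mean log2 differences between pools and not the fitted ones, and the difference between regions was not tested in any case. In the early contrast all early pools were of kit class B, while 1 control pool of each region was of class A. Region and driver line cannot be told apart. Egr2 in fibroblasts stood at -2.22 in cortex and 1.052 in striatum for early against control, a difference of -3.27. Its fibroblast medians were 52.1 CPM in cortex, where the 6 pools held 296 such cells, and 37.1 in striatum, with 274 cells. Egr2 in perivascular macrophages, with 596 cortical and 259 striatal cells over 6 pools, stood at 0.32 and -0.62 for late against control (difference 0.94). Egr4 in endothelial cells, where its level is near 0, stood at -3.18 and 4.01 for late against control (difference -7.19). Nr4a2 in fibroblasts stood at 0.37 and -1.09 for late against control (difference 1.46). Nr4a3 in perivascular macrophages stood at -1.04 and 1.956 for late against control (difference -3.00).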

How the results depend on the processing

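The D1 and D2 difference kept all 6 members in all 14 alternatives, and with 1 pool left out 6 to 7 members passed. Between projection classes 37 to 38 pairs passed with a pool left out. No called value changed sign. Counts elsewhere moved. Between regions, 4 pairs became 7 with DESeq2, 9 with doublets kept, 10 with kit class B alone, 9 without a filter on low counts and 0 of 5 with a stricter cell filter, and 3 to 10 with a pool left out. For the reporter in striatum, 7 became 4 with DESeq2, 4 with class B alone, 0 after thinning, 3 without the filter and 3 to 7 with a pool left out. In cortex 3 became 1 with at least 2 wpre UMIs, 0 after thinning, 0 without the filter and 1 to 3 with a pool left out. For hemispheres in striatum, 1 became 0 with DESeq2, with activity genes kept in clustering, with class B alone, without the filter and with the stricter cell filter, 2 with doublets kept, and 0 to 1 with a pool left out. In cortex 0 became 1 with doublets kept, with class B alone and without the filter, and 0 to 1 with a pool left out. Over all genes, the striatal hemisphere calls were 23 in the main fit, 1 with DESeq2, 28 with activity genes kept and 22 with class B alone. They were 59 without the filter, 21 with the stricter cell filter and 35 with doublets kept. In cortex they were 39 in the main fit, 37 with doublets kept, 24 with class B alone and 144 without the filter. For regions and reporter such counts are not given, so those changes are not read as results about the members. For training stage, 0 in striatum became 14 with class B alone, 9 without the filter (where 0.240% of all genes passed) and 2 to 22 with a pool left out, and 0 in cortex became 3 with class B alone and 0 to 10 with a pool left out. The cause was not tested. With the replicate block, 0 stage pairs passed in either region, though the numbers pair no samples. The class B alternative was chosen after seeing the data. Of the order of neighbouring classes, 0 pairs passed in every alternative. The stage fits with 5 pools or with class B alone have 1 residual degree of freedom, and class B alone leaves 1 control and 1 late pool, where 0.865% of all genes passed in striatum and 0.409% in cortex, so that these counts are not read as calls. Classes under 20 cells in a pool could not be tested.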

Other observations

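Levels in further classes were as follows. Eccentric spiny neurons, with 20 cells in 4 pools, had medians of 1154 CPM of Egr1, 248 of Egr3 and 147 of Egr4. Striatal glutamatergic neurons, also in 4 pools, had 342 CPM of Nr4a2. Among cortical interneurons Egr1 stood at 376 CPM in Lamp5 cells and 269 in somatostatin cells, and Nr4a2 at 52.1 in somatostatin cells. In the latter, 1 cluster of 205 cells held 300 of the Nr4a2 UMIs (127 CPM), and the other 3 clusters stood at 0.59 to 10.02 CPM. Striatal neuroblasts had 98.7 CPM of Egr1 and 22.5 of Nr4a1. Committed oligodendrocyte precursors had 44.9 CPM of Egr1 in cortex and 78.4 in striatum, and oligodendrocyte precursors 1101 and 1249.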
